A study of Mus musculus with 60 samples.

Results

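The time course of striatal gene expression after a single injection of imipramine was examined in 12 of the 60 arrays of the series, 3 arrays at each of 1, 2, 4 and 8 h. All arrays labelled imipramine were taken, and the 2, 4 and 8 h groups were each compared with the 1 h group over all 45281 probes. The mice were C57BL/6J males, aged 6 to 10 weeks by the labels, and received imipramine at 10 mg/kg intraperitoneally. The methods give a narrower age range within that of the labels. Each array held RNA pooled from 2 mice, so the 3 arrays of a group stand for separate pools and no single animal was measured. The dissected striatum comprised the rostral caudate putamen and the nucleus accumbens. Injected controls received saline, naive controls received no injection, and both were killed at the same 4 times (12 arrays each). The remaining arrays, of mice given tianeptine or fluoxetine, were not compared but shared in the normalisation and the fit. The earliest imipramine group was itself 1 h past the injection, so a change from 1 h is not a change from an untreated state. Within the imipramine mice, time since injection and time of day cannot be told apart. In bulk tissue, fewer cells of a type and less RNA per cell cannot be told apart either.

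Imipramine is a tricyclic antidepressant that blocks the reuptake of serotonin and noradrenaline and also binds histamine, muscarinic and adrenergic receptors. Handling, injection and neuronal activity switch on immediate early genes in the striatum. The first of these encode transcription factors of the Egr, Fos and Jun families, whose messages are made through serum response factor and CREB and decay quickly once signalling stops. A separate programme runs with the time of day: the CLOCK and BMAL1 proteins bind E-boxes and drive the Per, Cry, Rev-erb and PAR bZIP genes, which in turn repress or pass on the rhythm.

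The genes that moved over the imipramine time course belonged mostly to these 2 programmes, and the start regions of 4 of them are shown to illustrate the elements by which each programme is known to act. Each stretch runs 5′ to 3′ on the gene's strand from 250 bases before to 50 bases after a RefSeq transcription start (GRCm38.p6). In Ciart (chr3:95882179-95882478, minus strand) and Per1 (chr11:69098699-69098998, plus strand) capitals mark the E-box CACGTG. In Fosb (chr7:19309996-19310295, minus strand) they mark TGACG, the core letters of the CREB element, on either strand, and in Egr2 (chr10:67537619-67537918, plus strand) they mark those letters and the CArG box bound by serum response factor.
Ciart: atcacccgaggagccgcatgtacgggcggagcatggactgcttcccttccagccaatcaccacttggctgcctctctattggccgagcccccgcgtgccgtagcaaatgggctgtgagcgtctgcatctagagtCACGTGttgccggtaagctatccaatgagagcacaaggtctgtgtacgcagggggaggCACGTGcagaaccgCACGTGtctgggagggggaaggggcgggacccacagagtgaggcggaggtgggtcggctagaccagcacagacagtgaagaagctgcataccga
Per1: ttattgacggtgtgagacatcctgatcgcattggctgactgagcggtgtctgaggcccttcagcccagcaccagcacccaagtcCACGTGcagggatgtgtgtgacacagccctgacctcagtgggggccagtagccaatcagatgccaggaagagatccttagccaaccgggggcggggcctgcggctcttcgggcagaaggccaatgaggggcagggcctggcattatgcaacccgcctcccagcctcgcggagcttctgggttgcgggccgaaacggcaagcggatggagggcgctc
Fosb: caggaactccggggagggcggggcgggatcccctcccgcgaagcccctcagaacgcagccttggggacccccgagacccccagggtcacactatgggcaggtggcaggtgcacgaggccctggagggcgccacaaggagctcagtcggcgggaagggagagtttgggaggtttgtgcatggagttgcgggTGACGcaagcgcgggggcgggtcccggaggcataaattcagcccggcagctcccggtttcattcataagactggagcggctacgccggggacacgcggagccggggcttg
Egr2: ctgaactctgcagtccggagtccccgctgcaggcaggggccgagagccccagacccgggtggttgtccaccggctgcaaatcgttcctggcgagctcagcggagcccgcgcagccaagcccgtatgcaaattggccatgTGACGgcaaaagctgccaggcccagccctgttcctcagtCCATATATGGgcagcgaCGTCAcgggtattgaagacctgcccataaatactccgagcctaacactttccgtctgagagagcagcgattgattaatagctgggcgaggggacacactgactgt

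Both strands of 20 such windows from 12 genes were searched, and where a gene had several windows the first that held every marked element is printed. Ciart held 3 E-boxes, at 116, 58 and 44 bases before its start, and the E-box of Per1 lay 166 bases before its start. The E-box was present in 7.15% of all 32851 windows of this length. In Egr2 the CREB cores lay 111 and 55 bases and the CArG box 72 bases before the start, and in Fosb the core lay 60 bases before it. Of all windows, 20.8% held the core and 1.63% a CArG box. Fos held 2 cores, Ccno held 1, both windows of Per1 held 1 (unmarked in the one printed), and Per3 held 2 D-boxes (TTATGTAA or TTACGTAA, in 1.06% of all windows), the element bound by PAR bZIP factors such as Dbp. Another window of Egr2 held an E-box 27 bases before its start and no CREB core or CArG box. The windows of Dbp, Nr1d1, Fosl2, Etv5 and Ano2 held none of these letters. These are matches of letters in a short window, and binding was not measured.

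The tissue showed the defining genes of its label. Of 13 measured markers of medium spiny neurons, the principal striatal cell, 12 lay above the median probe, with a median at percentile 97.9 of mean signal, whereas 3 of 8 blood cell markers did. Also above it were 9 of 11 cortical excitatory markers (median percentile 77.5), 7 of 8 thalamic and septal markers (80.5) and 8 of 10 choroid plexus markers (64.2). A signal above the median was thus not particular to striatal markers. No marker of the 11 cell type lists passed any test over the imipramine times. A few arrays stood apart for markers of other cell types, and the part of this in the results was not tested beyond leaving arrays out. Ttr, the main choroid plexus transcript, read 13.51 in 1 h replicate 3 and 13.76 in 2 h replicate 3 against 10.29 to 11.66 on the other 10 imipramine arrays, on the log2 scale. Slc6a3, the dopamine transporter of midbrain neurons, read 9.56 in 1 h replicate 3 and 7.08 and 7.62 on the other 1 h arrays. The mean of 8 thalamic and septal markers spanned 9.47 to 10.18 over the 1 h arrays and 9.35 to 9.83 over the later ones. Arrays of 1 h stand in every comparison, so results are also given without them where that changed a call. The arrays lay on 10 chips of 6, and no chip held a 1 h imipramine array together with one of 4 or 8 h. The leading principal component of the 60 arrays carried 28.9% of the variance, and chip accounted for a fraction of 0.985 of it. Chip therefore entered the fit as a random block.

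Few probes passed the test, and most of them did so at the latest time. A moderated test in limma, with Benjamini-Hochberg adjustment over all probes and a threshold of 0.05, called no probe at 2 h (0% of all probes, 1871 at an unadjusted p below 0.05), 1 lower probe at 4 h (0.00221%) and 12 probes at 8 h (0.0265%). Of those 12 probes, 8 were higher (0.0177%) and 4 lower (0.00883%), and they covered 8 named genes and 2 probes without a gene name. The test over all 4 times called 11 probes (0.0243%), covering 6 genes and 3 unnamed probes. The median standard error of a change was 0.12 on the log2 scale at each time, and the median change over all probes was 0.00. The same test in the controls called 1, 2 and 41 probes in saline-injected mice at 2, 4 and 8 h (0.00221%, 0.00442% and 0.0905%) and 0, 0 and 4 in naive mice (0%, 0% and 0.00883%). Fitted changes take account of chip and so differ slightly from the differences between plain means. When signals were standardised within chips, or each probe was tested alone with its own spread, no probe was called at 4 h, at 8 h or over the 4 times.

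Among the immediate early transcription factors, Egr2, a zinc finger protein of the Egr family, fell by 4 h. The 1 h arrays read 10.22, 10.22 and 9.85 for Egr2, the 2 h arrays 9.11, 8.97 and 8.96, the 4 h arrays 8.35, 8.18 and 8.68, and the 8 h arrays 8.71, 8.97 and 9.53 (log2 signal). Every array of the later times lay below every 1 h array, and the 4 h arrays were the lowest. Egr2 fell by 1.64 on the log2 scale at 4 h (SE 0.22, adjusted p = 4.76e-05), a 3.12-fold reduction, and also passed the test over the 4 times (adjusted p = 0.00011). The changes at 2 h (-1.10, adjusted p = 0.173) and 8 h (-1.0, adjusted p = 0.0964) did not pass. The 4 h call was made without any single imipramine array, with changes of -1.76 to -1.51. On the one chip that held arrays of both 1 and 2 h the difference was -1.11.

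**Figure D1:**
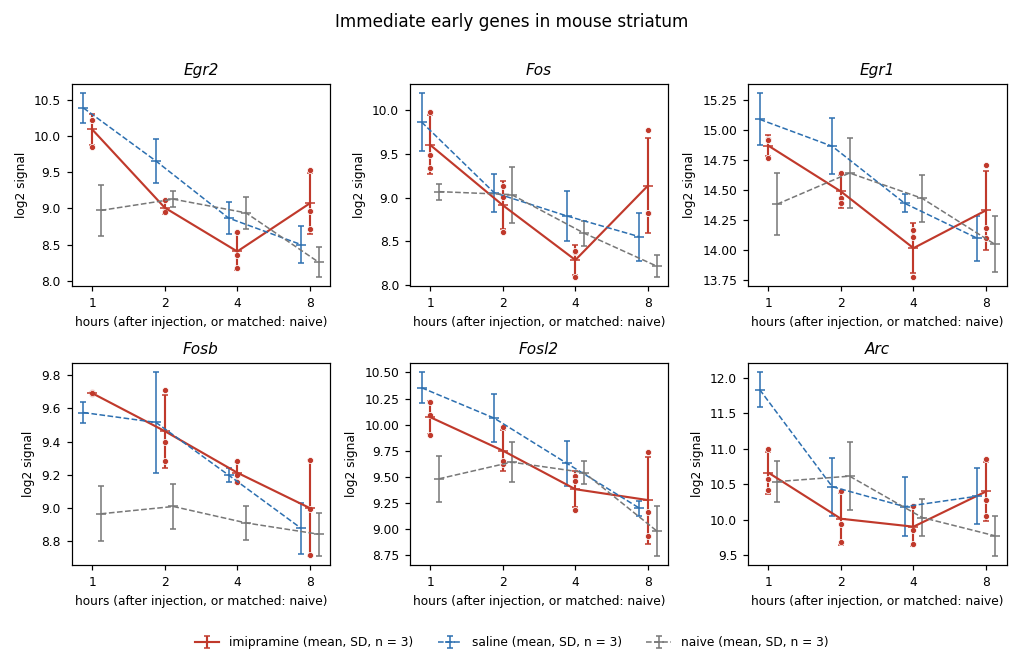
Signal (log2) of 6 immediate early genes against hours after injection, or the matched time in naive mice; points are imipramine arrays, and lines with bars give mean and SD of 3 arrays for imipramine, saline and naive mice. In imipramine mice Egr2 went from a mean of 10.10 at 1 h to 8.40 at 4 h, and naive mice had a mean of 8.97 at 1 h.

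Fos and Egr1, the most widely used markers of recent neuronal activity, had the next smallest p-values at 4 h and stood just outside the threshold. Fos read 9.98, 9.49 and 9.34 at 1 h and 8.38, 8.09 and 8.39 at 4 h, without overlap (-1.21, 2.31-fold lower, adjusted p = 0.0516). Egr1 read 14.92, 14.91 and 14.77 at 1 h and 14.10, 13.77 and 14.16 at 4 h, again without overlap (-0.79, adjusted p = 0.0516). Both passed when chip was left out of the fit and when 8 h replicate 1, 2 or 3 or 2 h replicate 1 was left out (adjusted p = 0.0128 for Fos and 0.0155 for Egr1 without 8 h replicate 3), and Fos also without 2 h replicate 2 (adjusted p = 0.0302). Neither passed when any one of the 1 h or 4 h arrays, which this comparison sets side by side, was left out. They also failed with chip as a fixed block, with median centring and with the compared arrays fitted alone. Arc, a synaptic effector of the same response, gave 11, 10.43 and 10.57 at 1 h and 9.70, 9.94 and 10.41 at 2 h, with a change of -0.71 that did not pass (adjusted p = 1).

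Fosb and Fosl2, which encode partners of Jun in the AP-1 factor, were called lower at 8 h. For both, the 4 h arrays already lay below the 1 h arrays. Fosb read 9.70, 9.68 and 9.69 at 1 h, 9.71, 9.40 and 9.28 at 2 h, 9.28, 9.20 and 9.16 at 4 h and 8.72, 8.99 and 9.29 at 8 h. Its 4 h and 8 h arrays all lay below the 1 h arrays, and the 8 h change was -0.63 (SE 0.13, 1.54-fold lower, adjusted p = 0.0389). Fosl2 read 9.90, 10.09 and 10.22 at 1 h, 9.50, 9.19 and 9.46 at 4 h and 8.93, 9.16 and 9.74 at 8 h. The groups did not overlap, and the 8 h change was -0.73 (SE 0.15, 1.66-fold lower, adjusted p = 0.0389), although the dimmer probes of Fosl2 changed by -0.08 and -0.11. Etv5, an Ets factor induced by growth factor signalling, read 10.01, 10.47 and 10.59 at 1 h and 9.72, 9.76 and 9.76 at 8 h, also apart (-0.59, SE 0.12, adjusted p = 0.0397). These 3 calls were near the threshold. Fosb and Fosl2 lost them without any one of the 1 h arrays or without 8 h replicate 1 or 2, with adjusted p up to 0.676 and 0.725 and changes of -0.78 to -0.51 and -0.99 to -0.56. Fosl2 also lost it without 2 h replicate 1, and Etv5 without 1 h replicate 2 or 3, any 8 h array, 2 h replicate 1 or 4 h replicate 1 (adjusted p up to 0.457, changes of -0.70 to -0.52).

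At 8 h, replicate 3 stood above replicates 1 and 2 for most of these genes. Fos read 9.77 in it and 8.82 in both of the others, Egr1 14.70 against 14.19 and 14.10, and Arc 10.85 against 10.06 and 10.29. Without this array the 8 h fall of Egr2 passed the test (adjusted p = 0.0133), but with all arrays it did not. The array was singled out for its high values, so leaving it out was bound to deepen the fall. No conclusion is drawn from that pass.

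Among 27 measured immediate early transcription factors of 29 listed, none was called at 2 h, 1 was lower at 4 h (Egr2) and 2 were lower at 8 h (Fosb and Fosl2). Over all 45281 probes 0, 1 and 12 were called at these times. The change was below 0 for 21, 21 and 18 of the 27 at 2, 4 and 8 h, with medians of -0.15, -0.10 and -0.06. Of all probes, 22652, 22455 and 22461 lay below 0. The medians of this list were -0.15, -0.08 and -0.24 after saline and 0.11, 0.03 and -0.10 in naive mice. The mean over the list was 9.21 to 9.23 on the 1 h arrays, 8.99 to 9.06 at 2 h, 8.87 to 8.91 at 4 h and 8.96 to 9.14 at 8 h, so each later array was below each 1 h array. The list holds the called genes Egr2, Fosb and Fosl2 and was chosen with earlier results of these data known. Its mean is therefore no independent support for their fall. Egr4, Junb and Klf2 had changes of -1.11, -0.69 and -0.72 at 4 h and did not pass, while Jun, Csrnp1 and Klf6 lay above 0 at that time. Of 24 measured immediate early effectors 1 passed the test over the 4 times, Per1, and none passed against 1 h (medians -0.07, -0.04 and -0.09). Of 13 inhibitors that switch MAP kinase signalling off none passed, with 10, 8 and 12 of them below 0. Dusp6, the ERK phosphatase, had changes of -0.40, -0.51 and -0.21.

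**Figure D2:**
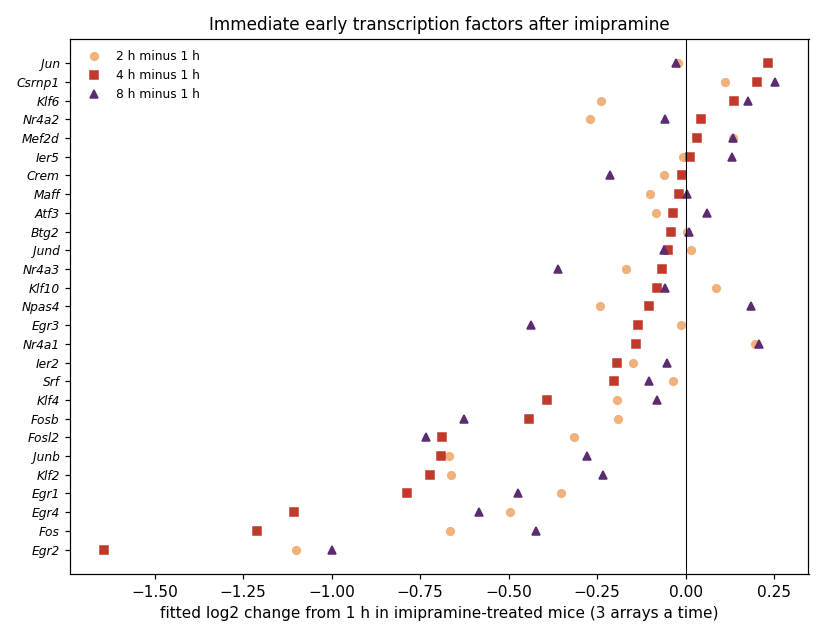
Fitted log2 change from 1 h (horizontal axis) at 2, 4 and 8 h for the 27 measured immediate early transcription factors in imipramine-treated mice, 3 arrays a time, 1 probe a gene. Egr2, at -1.10, -1.64 and -1.0, lies farthest to the left at each time, and 21 of 27 points lie below 0 at 4 h.

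At 8 h 3 genes of the circadian clock were higher, Ciart, Dbp and Nr1d1. Ciart, a repressor of the CLOCK and BMAL1 pair whose start region is printed above, read 9.27, 9.57 and 9.75 at 1 h, 9.09, 9.28 and 9.56 at 2 h, 9.23, 9.66 and 9.71 at 4 h and 10.72, 10.76 and 10.49 at 8 h. It was flat until 4 h and then lay above every earlier array. The rise was 1.11 on the log2 scale (SE 0.15, 2.15-fold, adjusted p = 1.43e-05), and its other 2 probes rose by 1.06 and 0.87 (adjusted p = 1.1e-06 and 1.43e-05). Dbp, a PAR bZIP factor and direct clock target, read 13.12, 13.34 and 13.08 at 1 h, 13.23, 13.61 and 13.26 at 2 h, 13.61, 13.61 and 13.74 at 4 h and 14.32, 14.16 and 14.08 at 8 h. Its 4 h arrays were already above the 1 h arrays and its 8 h arrays above all others, and the 8 h rise was 0.99 (SE 0.12, 1.99-fold, adjusted p = 1.1e-06). Ciart and Dbp were called at 8 h without any single imipramine array.

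Nr1d1, which encodes the repressor Rev-erb alpha, read 8.54, 8.73 and 8.53 at 1 h, 8.89, 8.90 and 8.99 at 2 h, 9.16, 9.25 and 9.17 at 4 h and 9.45, 9.53 and 9.06 at 8 h. Every later array lay above the 1 h arrays, and the 8 h rise was 0.75 (SE 0.15, 1.68-fold, adjusted p = 0.0389). The call was lost without any one of the 1 h arrays, 8 h replicate 1 or 2 or 2 h replicate 1 (adjusted p up to 0.622, changes of 0.66 to 0.84) and without the chip block (adjusted p = 0.337). Per3 read 8.32, 8.21 and 8.32 at 1 h and 8.65, 8.84 and 8.74 at 8 h, without overlap, but did not pass (0.49, adjusted p = 0.222). Arntl, which encodes BMAL1 itself, had changes of -0.05, -0.45 and -0.61 and did not pass either (adjusted p = 0.964 at 8 h).

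**Figure D3:**
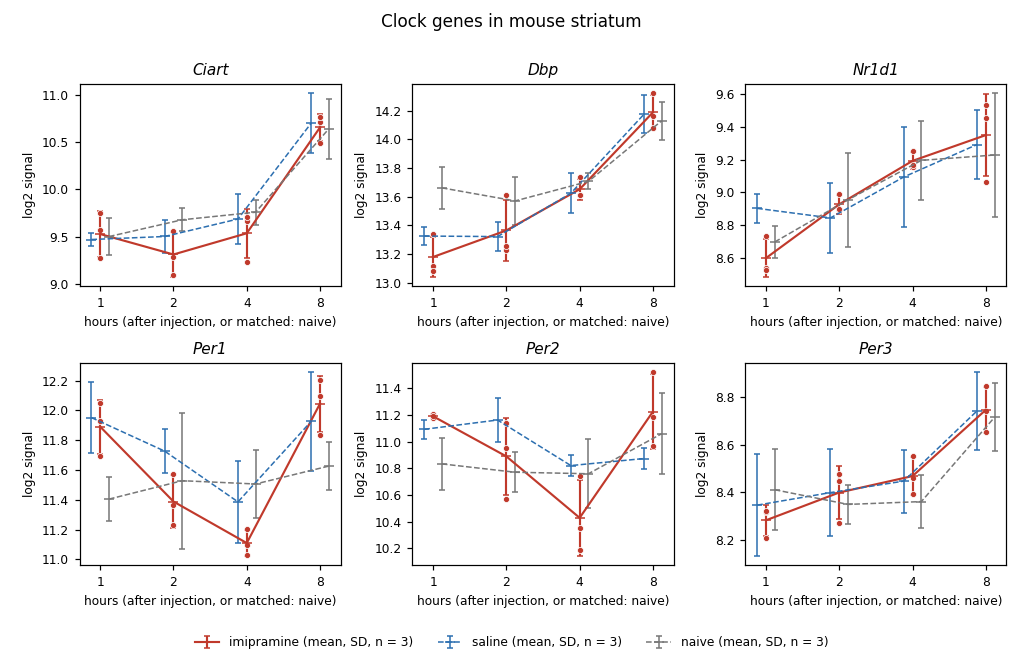
Signal (log2) of 6 clock genes against hours after injection, or the matched time in naive mice; points are imipramine arrays, and lines with bars give mean and SD of 3 arrays a group. All 3 Ciart points at 8 h, 10.49 to 10.76, lie above the highest earlier point at 9.75, and Per1 and Per2 are lowest at 4 h.

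Per1 and Per2, the light- and CREB-responsive repressors of the clock, followed another course, with their lowest values at 4 h. Per1 read 11.69, 12.05 and 11.93 at 1 h, 11.23, 11.58 and 11.36 at 2 h, 11.10, 11.03 and 11.20 at 4 h and 12.10, 11.84 and 12.20 at 8 h. Per2 read 11.18, 11.20 and 11.19 at 1 h, 11.14, 10.57 and 10.95 at 2 h, 10.19, 10.35 and 10.74 at 4 h and 10.97, 11.18 and 11.52 at 8 h. For both genes the 4 h arrays lay below all 1 h and all 8 h arrays. Each changed over the 4 times (adjusted p = 0.0429), whereas the changes at 4 h alone, -0.70 for Per1 and -0.77 for Per2, did not pass (adjusted p = 0.556 and 0.126). The Per1 call over the 4 times was lost without any one of the 12 arrays (adjusted p of 0.0506 to 0.381), the Per2 call without 8 of them, and at 4 h the other probes changed by -0.62 and 0.24 for Per1 and by -0.59 and -0.08 for Per2.

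Of 14 core clock genes measured, 1 rose at 8 h (Nr1d1) and none fell. Of 13 clock output genes 2 rose (Ciart and Dbp), and none fell. Over all 45281 probes 8 rose and 4 fell at this time. The medians of the lists at 8 h were -0.07 and 0.01, beside 0.00 over all probes. Tspan4, also on the output list, stood just outside the threshold at 8 h (0.47, adjusted p = 0.0742).

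Outside these programmes, 2 named genes were higher at 8 h. Ano2, a calcium-activated chloride channel, read 9.17, 9.25 and 9.37 at 1 h, 9.40, 9.46 and 9.42 at 2 h, 9.34, 9.65 and 9.86 at 4 h and 10.12, 10.25 and 10.32 at 8 h. The 8 h arrays stood above all others, with a rise of 0.95 (SE 0.16, 1.93-fold, adjusted p = 0.00271) that was called without any single array, although a second probe changed by 0.34 and the call was lost with median centring in place of quantile normalisation (adjusted p = 0.37). Ccno, a cyclin family gene known from multiciliated cells, read 8.91, 8.97 and 9.12 at 1 h, 9.25, 9.63 and 9.70 at 4 h and 9.56, 10.07 and 9.47 at 8 h. It rose by 0.68 at 8 h (SE 0.14, 1.60-fold, adjusted p = 0.0389), with all later arrays above the 1 h arrays. This call was lost without any one of the 1 h arrays, 8 h replicate 1 or 2 or 2 h replicate 1 (adjusted p up to 0.954, changes of 0.51 to 0.84). The 7 measured ependymal markers, genes of the ciliated ventricular lining, had a median change of 0.07 at 8 h and none passed; their part in the Ccno result was not tested.

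Among the called probes without a gene name, ILMN_2486012 showed the largest fall at 8 h of all probes. It read 12.72, 13.12 and 13.14 at 1 h, 12.77, 12.80 and 13.21 at 2 h, 12.64, 12.21 and 12.31 at 4 h and 11.03, 11.52 and 11.90 at 8 h. The 8 h arrays lay below all others (-1.43, adjusted p = 1.1e-06). ILMN_1229091 rose by 0.91 at 8 h (adjusted p = 0.000528), and ILMN_1230719 changed over the 4 times (adjusted p = 0.0429), with changes of 0.39, 0.48 and -0.24.

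At 2 h, where no probe was called, the smallest p-values after that of Egr2 belonged to Naglu, a lysosomal enzyme that degrades heparan sulfate (0.52, adjusted p = 0.276), and to Patz1, a zinc finger transcription factor (-0.41). Naglu moved by -0.16 in saline-injected and by -0.30 in naive mice at this time. The difference of its change from that of naive mice was 0.81 (95% interval 0.51 to 1.12, adjusted p = 0.111 in the test of the 2 h difference alone). Naglu was named for its small p-value in the same imipramine arrays, so this interval is no independent support.

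Whether the course in imipramine mice differed from that of the controls was tested directly. The test of the 3 differences of changes called no probe against saline (0%, smallest adjusted p = 0.999948, 1462 probes at an unadjusted p below 0.05) and none against naive mice (0%, smallest adjusted p = 0.27, for Egr2, 1512 probes). The intervals below are for single genes and are not adjusted for the number of probes. Most of these genes were named for their change in the same imipramine arrays, which favours differences away from 0. An interval that leaves out 0 is therefore no independent support for a difference from controls.

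For Egr2 the change in saline-injected mice was -0.73, -1.57 and -1.87 at 2, 4 and 8 h, and the difference of the imipramine change from it at 4 h was -0.07 (95% interval -0.73 to 0.59). By 8 h the imipramine value was less reduced, by 0.87 (0.23 to 1.51). For Egr2, Fosl2 and Arc, 8 h replicate 3 stood above the other 8 h imipramine arrays, so it widens the gaps from saline given here. No interval is given without that array. The test of the 8 h difference from saline alone called no probe. Naive mice started lower, with a mean of 8.97 at 1 h against 10.10 after imipramine and 10.39 after saline, and changed by 0.13, -0.07 and -0.78. The 4 h change after imipramine differed from theirs by -1.57 (-2.23 to -0.92). At 8 h Fosl2 changed by -1.20 in saline and -0.51 in naive mice, which put imipramine 0.47 above saline (0.03 to 0.90) and -0.22 from naive (-0.66 to 0.21). Fosb changed by -0.73 in saline and -0.16 in naive mice at 8 h, with differences of 0.10 (-0.26 to 0.47) and -0.47 (-0.84 to -0.10). Arc gave the widest gap from saline among these genes, with -0.29 at 8 h after imipramine and -1.51 after saline (difference 1.23, 0.34 to 2.11, adjusted p = 1). It is singled out here for that width, so no conclusion is drawn from its interval.

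The clock genes and the other genes called at 8 h are set beside the controls in the same way. The 8 h change of Ciart was 1.11 after imipramine, 1.33 after saline and 1.15 in naive mice, with differences of -0.23 (95% interval -0.66 to 0.21) and -0.04 (-0.48 to 0.40). For Dbp the changes were 0.99, 0.91 and 0.50, with differences of 0.08 (-0.27 to 0.43) from saline and 0.49 (0.14 to 0.84) from naive mice. For Nr1d1 they were 0.75, 0.43 and 0.50, and both intervals included 0 (-0.12 to 0.76 and -0.20 to 0.69). Ano2 changed by 1.1 in saline-injected and 0.42 in naive mice, the latter 0.53 below imipramine (0.05 to 1.01). Ccno changed by 0.68 and 0.47, Etv5 by -0.60 and -0.44, and ILMN_2486012 by -1.57 and -1.20. Per2 at 4 h changed by -0.26 after saline and -0.11 in naive mice, beside -0.77 after imipramine, and Per1 by -0.55 and 0.05, beside -0.70. No interval is given for Ccno, Etv5, ILMN_2486012, Per1 or Per2. The tests of the 4 h difference from saline and from naive mice called no probe.

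**Figure D4:**
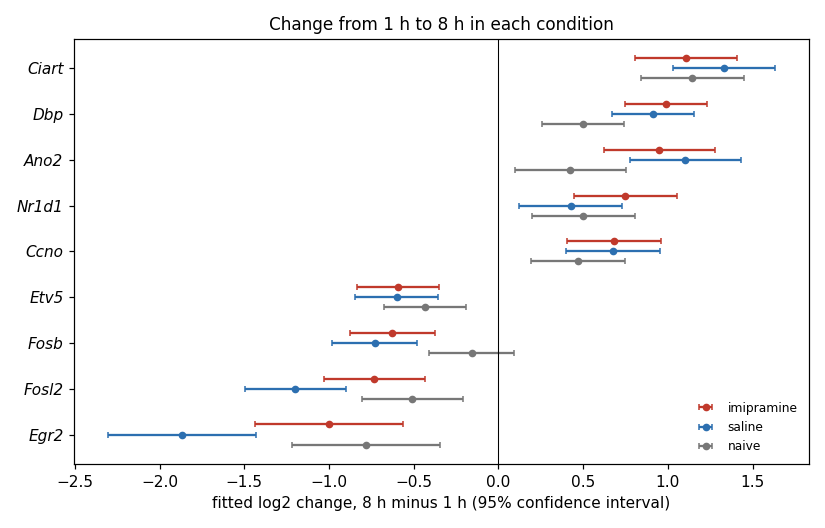
Fitted log2 change from 1 h to 8 h (horizontal axis) with 95% confidence interval for 9 genes in imipramine, saline and naive mice, 3 arrays a group and time. Ciart changed by 1.11, 1.33 and 1.15, and Egr2 is at -1.0 after imipramine and -1.87 after saline.

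Other pathways that might respond to an injected antidepressant gave no call against 1 h. None of 31 glucocorticoid-responsive genes passed against 1 h, although 1 of them passed the test over the 4 times. Their medians were -0.03, -0.09 and 0.03 after imipramine beside 0.14, 0.11 and 0.18 after saline. Fkbp5, a chaperone of the glucocorticoid receptor, changed by 0.16, 0.20 and 0.18 after imipramine and by 0.47, 0.32 and 0.57 after saline. Sgk1, a kinase induced by glucocorticoids, read 12.90, 13.04 and 13.37 at 1 h and 12.31, 12.30 and 12.33 at 4 h, without overlap, but its change of -0.79 did not pass (adjusted p = 1). Plin4, a lipid droplet coat protein, changed by 0.51, 0.69 and 0.76 after imipramine and by 1.47 at 8 h after saline. Neither Fkbp5 nor Plin4 passed the test of the difference from saline at 2, 4 or 8 h, and the list medians were not tested against saline. None of 20 heat shock genes passed, with 16 of them below 0 at 8 h (median -0.15, and -0.21 after saline), beside 22461 of all 45281 probes. Cirbp, whose product binds RNA and is made in the cold, changed by 0.47 at 8 h (adjusted p = 0.688). Of 21 measured transporters, receptors and enzymes that imipramine or the monoamines act through, none passed, with medians of 0.02, 0.01 and -0.01. The serotonin transporter Slc6a4 changed by 0.10, -0.08 and 0.18. No member passed among 20 striatal neuropeptide and signalling genes, 19 glutamate and GABA receptor genes, 20 inflammation genes, 15 cholesterol synthesis genes, 15 genes of the integrated stress response or 15 of fatty acid oxidation. Mtor, the growth kinase, changed by 0.16, 0.07 and 0.27, and Cdkn1a, a cell cycle inhibitor, by -0.06, 0.03 and -0.19, neither passing.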

How the data were processed

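Striatal RNA was measured on Illumina MouseWG-6 v2 arrays. The log2 signals deposited by the authors were exported from BeadStudio without normalisation between arrays; the methods name background subtraction but not whether it was applied to this table, and detection values were not used. The signals were quantile normalised here over all 60 arrays. The model, in limma 3.58.1 under R 4.3.3 with statmod 1.5.0, held 20 group means and chip as a random block (correlation 0.201), and p-values were adjusted over 45281 probes. The 20 groups included those of tianeptine and fluoxetine (each at 20 mg/kg), which shared in the estimates of spread and of chip correlation. The deposited quantile-normalised log2 values, whose z-score step is not stated, served as an alternative. The labels tie replicate numbers to nothing shared and not every same-numbered pair deviated together, so the number was not a block in the main fit. A single gene symbol was known for 34885 probes, several for 18 and none for 10378. Named were up to 10 genes a direction past the threshold, otherwise the 3 smallest p, listed genes that passed and up to 4 examples a list, and the genes the study gives as examples. Per-array values are for the brightest probe, or, for genes past the threshold, the brightest of the probes that passed. The fit was tested on simulated data. Members and gene lists were chosen with earlier results of these data known. Alternatives covered normalisation, dim probes, chip, replicate number, the arrays fitted and each array left out. The number of arrays, 3 a group, limits the precision, and p-values measure the spread between pools of 2 mice. RefSeq annotation was that of GRCm38.p6.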

Additional observations from a re-analysis of the deposited data

How the results depend on the processing

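The counts of called probes were small and moved with the treatment of chips. With the authors' normalised values, or with probes above the common median alone, the counts stayed within 1.5 times those reported. Median centring gave 6 probes at 8 h and 7 over the 4 times. Without the chip block 3 were called at 4 h (Fos and Egr1 besides Egr2) and 7 over the 4 times. With chip as a fixed block 1 was called at 2 h (Dusp6, -0.78, on another probe than the one described above) and 2 at 4 h (ILMN_1229091 besides Egr2), and Fosb, Fosl2 and Ccno lost their calls at 8 h (adjusted p = 0.694, 0.46 and 0.0818). Standardising within chips gave 0 at 4 h, 0 at 8 h and 0 over the 4 times. Fitting the compared arrays alone gave 5 at 8 h and 3 over the 4 times. Apart from the settings that called nothing, each of these settings called Egr2 at 4 h and Dbp, 2 probes of Ciart and ILMN_2486012 at 8 h, whereas Fosb, Fosl2, Etv5, Ccno and Nr1d1 at 8 h and Per1, Per2 and ILMN_1230719 over the 4 times were each lost under at least 3 of them.

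The replicate block, fitted with the random chip block, gave 3 probes at 4 h (Fos and Egr1 besides Egr2, adjusted p = 0.0111 and 0.0203), 12 at 8 h and 11 over the 4 times, of which 10 were among those reported: Fos was gained (adjusted p = 0.0232) and Per2 lost (adjusted p = 0.0555). Over 18 same-numbered pairs of imipramine arrays the deviations correlated at -0.436 to 0.599 (mean 0.117, 8 pairs over 0.1).

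A plain test of each probe with its own spread gave 1530, 1883 and 1664 probes at 2, 4 and 8 h at an unadjusted p below 0.05, 1781 over the 4 times, and 1576 and 1518 for the differences from saline and naive mice. After Benjamini-Hochberg adjustment it gave 0 at 4 h, 0 at 8 h and 0 over the 4 times. Leaving out each imipramine array gave 0 to 0 probes at 2 h, 1 to 4 at 4 h, 7 to 13 at 8 h, 7 to 13 over the 4 times and 0 to 0 for both differences from controls. The 7 at 8 h came without 8 h replicate 1 or 2, and the 7 over the 4 times without 1 h replicate 1 or 3 or 8 h replicate 1 or 2; all of them were among those reported. The other Per1 probe reversed at 4 h, to 0.24. Signal over background is unknown, so dim probes are less certain than bright ones.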
